A study of Mus musculus with 8 samples.

Results

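Sox8, Sox9, Sox10 and Dmrt1 encode transcription factors that act in the fetal testis or are close relatives of such factors. On the mouse array used here, 8 probe sets mapped to these 4 genes by symbol, out of 18193 genes that the array annotation names singly and 45037 probe sets that are not array controls: 1 for Sox8, 3 for Sox9, 3 for Sox10 and 1 for Dmrt1. All 8 are described. There were 4 groups of 2 arrays, all of gonads at embryonic day 13 from the strain labelled C57BL6/J-Tg92: sorted EGFP+ XY cells, called Sertoli cells as in the labels (about 22000 cells per sample), sorted EGFP+ XX cells, called pre-granulosa cells (about 30000 per sample), whole testes and whole ovaries (4 gonads pooled per sample). All groups share the strain, and the labels do not name the promoter that drives EGFP. Each group has 2 separate RNA samples, but whether these stem from different animals or litters is not stated, so the p-values measure the spread between these samples, which may be technical.

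SOX proteins bind DNA through a high mobility group box, and SOX8, SOX9 and SOX10 form the SOXE group of this family. In the XY gonad SRY, acting with NR5A1, switches on Sox9 in the supporting cells, and SOX9 in turn activates Sertoli genes and maintains its own expression, while Sox8 is switched on later and can partly stand in for it. SOX9 is also the factor of cartilage formation, and SOX10 is best known from the neural crest, from which glia and melanocytes arise. DMRT1 binds DNA through a DM domain and keeps Sertoli cells from taking on a granulosa fate after birth. Fetal germ cells express Dmrt1 as well.

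The samples carried the sex of their labels: Xist, which coats and silences the inactive X chromosome, averaged 3.86 ± 0.19 in Sertoli cells against 11.51 ± 0.17 in pre-granulosa cells, and 3.86 ± 0.24 in testes and 11.35 ± 0.34 in ovaries (log2 value, mean ± SD, n = 2 in each group here and below). Foxl2, which marks pre-granulosa cells, averaged 5.31 ± 0.17 in Sertoli cells, against 9.32 ± 0.47 in pre-granulosa cells, and Dhh, a hedgehog ligand of Sertoli cells, 12.27 ± 0.12 and 5.78 ± 0.87 in these groups. Values of the 4 sorted-cell arrays and of the 4 gonad arrays appear to have been normalized separately, with array medians of 5.57 to 5.61 and 5.96 to 5.99. Differences were therefore taken within each set, and across the sets levels are placed by their percentile among the 45037 probe sets of the same array, with no test. The excess of 3' over 5' signal, a sign of shorter RNA, ranged over the 8 arrays from 1.57 to 3.08 log2 units for actin and from 0.72 to 3.68 for Gapdh, and was largest for both in pre-granulosa replicate 1. A log2 value of 4.78, the highest reading in XX samples of 9 probe sets for Kdm5d, Uty and Eif2s3y, all Y-linked, served as the background level. The 2 probe sets of Sry were left out of it, since they averaged 5.39 and 7.99 in pre-granulosa cells, which have no Y chromosome, so other probe sets can read above 4.78 without their gene. Folds given as at least compare the mean of the brighter group with the background level and leave out the spread of that mean. The number of arrays limits the precision.

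Between the sorted cell types (Sertoli minus pre-granulosa), which asks what distinguishes XY from XX supporting cells, Sox10 and Dmrt1 were higher in Sertoli cells, Sox10 by 20.9-fold and Dmrt1 by 5.37-fold. Differences of 5.28-fold for Sox8 and 3.32-fold for Sox9 did not pass the threshold. The test was limma over all 8 arrays with Benjamini-Hochberg adjustment over all probe sets, and a probe set at an adjusted p of 0.01 or less is named called. Of the 8 probe sets 3 were called, all of them higher, where 1.81% of all probe sets were called in either direction and 0.999% were called higher. The median difference was 1.72 over the 8 and 0.01 over all probe sets. In 7 of 8 the Sertoli values lay above the pre-granulosa values with no overlap, which held for 20.9% of all probe sets, while 20.5% of all lay below with no overlap. The count of 3 fell to 1, the brightest Sox10 probe set, without any one of the Sertoli, testis or ovary arrays, and to 0 with the 4 sorted arrays alone.

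The whole organs (testis minus ovary) hold other cell types besides the supporting cells. Between these organs limma called 0 of the 8 probe sets, where 0.215% of all probe sets were called. At an unadjusted p under 0.05 it was 4 of 8, against 9.31% of all. Sox9 had the largest difference of the 4 genes, 8.86-fold higher in testes (adjusted p = 0.0263), followed by Sox8 at 3.97-fold (adjusted p = 0.231) and Sox10 at 3.66-fold (adjusted p = 0.0218), while the testis and ovary values of Dmrt1 overlapped. The median difference was 0.61 over the 8 probe sets and -0.02 over all. In 7 of 8 the testis values lay above the ovary values with no overlap, which held for 23% of all probe sets, while 27% of all lay below with no overlap. In a whole organ, fewer cells of a type and less RNA per cell cannot be told apart.

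**Figure D1:**
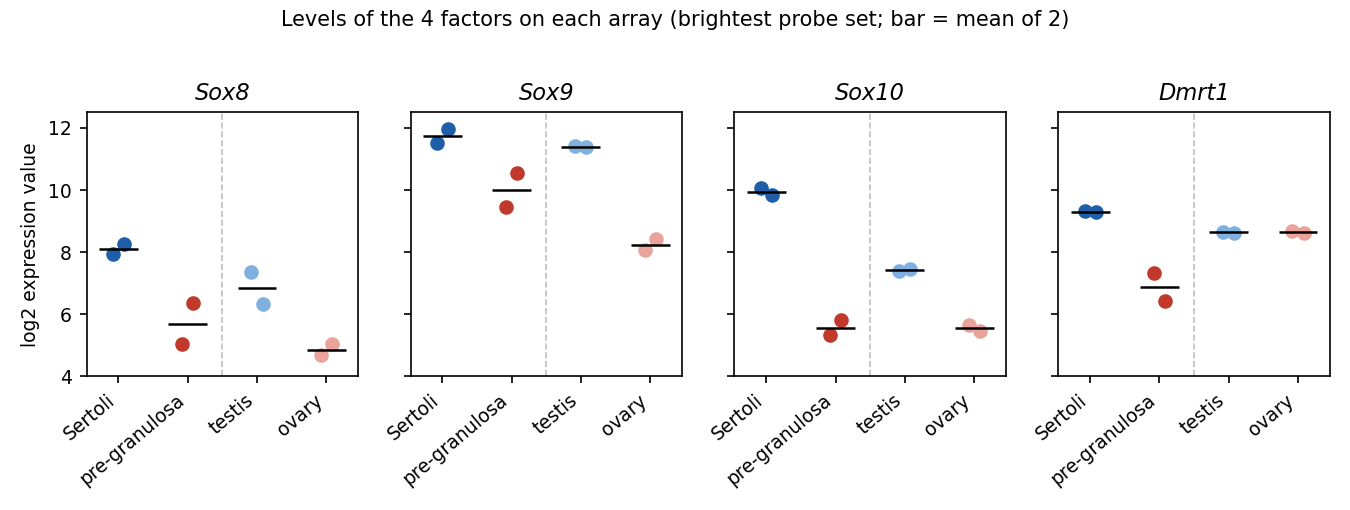
Log2 expression value (y axis) of the brightest probe set of Sox8, Sox9, Sox10 and Dmrt1 on each array, by group (x axis); points are arrays, bars are means of 2, and the dashed line separates the sorted cells from the gonads. Sertoli values lie above pre-granulosa values for all 4 genes, and Dmrt1 reads between 8.61 and 8.67 in all 4 gonad samples.

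Sox9, the testis-pathway SOX factor, was read by a bright probe set (1451538_at) and 2 dim ones. The bright one read 11.53 and 11.95 in Sertoli cells against 9.46 and 10.56 in pre-granulosa cells, and 11.41 and 11.37 in testes against 8.07 and 8.41 in ovaries. XY values lay above XX values in both sets, and the pre-granulosa arrays lay further apart than those of any other group. The difference was 1.73 ± 0.37 between the sorted cells (log2 difference ± SE, 95% interval 0.83 to 2.63, limma adjusted p = 0.0541) and 3.15 ± 0.37 between the organs (2.25 to 4.05, adjusted p = 0.0263). The interval of the sorted-cell difference lies above 0, but the probe set had rank 2621 by p of 45037, and without pre-granulosa replicate 2, the higher of these arrays, the difference was 2.28 with an adjusted p of 0.00752. The organ difference was called from the 4 gonad arrays alone (adjusted p = 0.0097) and without either pre-granulosa array (0.00782), and had adjusted p of 0.0554 to 0.25 without any one of the other arrays.

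Sox9 was also well above the background level in XX supporting cells. Its percentile on the array was 97.5 and 98.2 in Sertoli cells against 90.4 and 94.9 in pre-granulosa cells, 95.7 and 95.6 in testes and 75 and 78.1 in ovaries. The order of the groups was therefore Sertoli, testis, pre-granulosa and ovary, with no overlap between neighbours. Pre-granulosa minus ovary came to 2.03 less the median of all probe sets, which placed Sox9 at percentile 98.4 of that difference, while Sertoli minus testis came to 0.57 (percentile 83.5). The test of whether the XY minus XX difference differed between sorted cells and organs gave -1.42 ± 0.52 for Sox9 (95% interval -2.69 to -0.15, limma adjusted p = 0.381).

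The 2 dim Sox9 probe sets carried little signal. Probe set 1424950_at read 5.24 and 5.46 in Sertoli cells against 4.69 and 4.67 in pre-granulosa cells, the latter under the background level. The difference was 0.66 ± 0.29 (95% interval -0.05 to 1.38, limma adjusted p = 0.298). This probe set read 6.06 and 5.40 in testes against 5.18 and 4.57 in ovaries (difference 0.86 ± 0.29, adjusted p = 0.413). It was designed from the same complementary DNA record as the bright one. Probe set 1433889_at had group means at or under the background level, and read 3.98 and 4.35 in Sertoli cells against 4.57 and 4.08 in pre-granulosa cells, and 4.83 and 4.71 in testes against 4.68 and 4.44 in ovaries (adjusted p = 0.798 and 0.93). With the mean of all 3 probe sets in place of the bright one, the Sox9 difference was 0.74 between the sorted cells and 1.41 between the organs.

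**Figure D2:**
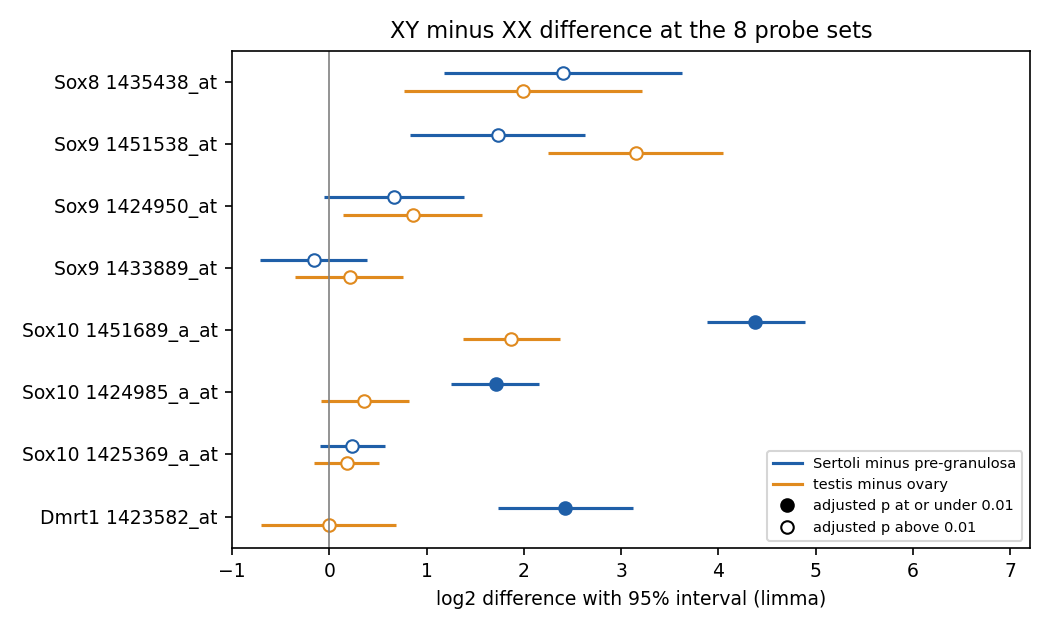
XY minus XX log2 difference (x axis, with 95% interval) at each of the 8 probe sets (y axis), between the sorted cells in blue and between the organs in orange; filled points have an adjusted p at or under 0.01 (limma). The 3 filled points are 2 probe sets of Sox10 and that of Dmrt1, all between the sorted cells.

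Sox8, the SOXE factor that follows Sox9 in Sertoli cells, read 7.93 and 8.27 in Sertoli cells against 5.05 and 6.35 in pre-granulosa cells. It read 7.36 and 6.34 in testes against 4.69 and 5.03 in ovaries. The groups did not overlap in either pair, but the replicates lay far apart in pre-granulosa cells and in testes. The differences were 2.40 ± 0.50 (95% interval 1.18 to 3.62, limma adjusted p = 0.0510) and 1.99 ± 0.50 (0.77 to 3.21, adjusted p = 0.231). Without pre-granulosa replicate 1 the sorted-cell difference was 1.75 and without replicate 2 it was 3.05 (adjusted p = 0.0795 and 0.0152). Its percentile was 79.0 and 81.3 in Sertoli cells against 40.2 and 60.8 in pre-granulosa cells, 67.8 and 55.4 in testes and 28.4 and 34.5 in ovaries. Sertoli cells were highest and ovaries lowest, and testes and pre-granulosa cells overlapped. The brightest probe sets of Sox8, Sox9 and Sox10 were lower in pre-granulosa replicate 1, the array with the largest 3' excess, than in replicate 2, and Dmrt1 and the Sox10 probe set 1424985_a_at were higher there. The part of RNA length in these results was not tested.

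Upstream sequence of Sox8 is shown as that of the factor whose profile over the arrays was most like that of Sox9, beside those of 2 Sertoli genes called in both comparisons, Cbln4 (a secreted cerebellin) and Cst9 (a cystatin). Of the 4 factors, Sox8 was matched in the RefSeq promoter table for GRCm38.p6. Sox9, Sox10 and Dmrt1 were not matched. Each line gives the 250 bases before the gene's start, 5′ to 3′ on the gene's own strand, at chr17:25570687-25570936 (minus strand), chr2:172043467-172043716 (minus strand) and chr2:148834897-148835146 (plus strand). Capitals mark AACAAT or ACAAAG, letters of the core that SOX proteins bind, searched on both strands (ATTGTT and CTTTGT in reverse).
Sox8: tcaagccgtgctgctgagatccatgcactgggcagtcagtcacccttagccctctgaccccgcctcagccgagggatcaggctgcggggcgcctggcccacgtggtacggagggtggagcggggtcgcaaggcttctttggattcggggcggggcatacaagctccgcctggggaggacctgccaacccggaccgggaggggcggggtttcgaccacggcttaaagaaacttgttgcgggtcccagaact
Cbln4: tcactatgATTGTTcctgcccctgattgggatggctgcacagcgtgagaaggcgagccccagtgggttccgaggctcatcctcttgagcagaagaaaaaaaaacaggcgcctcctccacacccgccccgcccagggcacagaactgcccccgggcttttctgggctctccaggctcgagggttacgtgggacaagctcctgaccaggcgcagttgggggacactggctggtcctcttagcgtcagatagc
Cst9: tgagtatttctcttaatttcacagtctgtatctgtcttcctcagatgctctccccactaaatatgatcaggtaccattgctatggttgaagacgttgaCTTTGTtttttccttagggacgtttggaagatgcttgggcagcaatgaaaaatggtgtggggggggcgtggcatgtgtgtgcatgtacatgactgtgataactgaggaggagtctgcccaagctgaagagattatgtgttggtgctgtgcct
The Sox8 window held 0 matches, and those of Cbln4 and Cst9 held 1 each. Across all 32851 windows of this length 24% held at least 1 match, 9.42% for AACAAT and 16.5% for ACAAAG. The windows of Ptgds, Dhh, Gdnf and Tesc, the other Sertoli genes of the list called in both comparisons, held none. A match is a run of letters and not a binding site.

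Sox10, the neural crest member of the SOXE group, gave the largest difference of the 4 genes between the sorted cells. Its brightest probe set (1451689_a_at) read 10.05 and 9.83 in Sertoli cells against 5.32 and 5.80 in pre-granulosa cells. It read 7.38 and 7.47 in testes against 5.65 and 5.45 in ovaries. The difference was 4.38 ± 0.21 between the sorted cells (95% interval 3.88 to 4.89, limma adjusted p = 8.69e-04), rank 26 by p of 45037 probe sets, and 1.87 ± 0.21 between the organs (1.37 to 2.37, adjusted p = 0.0218). With the 4 sorted arrays alone the first had an adjusted p of 0.0614. The excess of the sorted-cell difference over the organ difference was 2.51 ± 0.29 (1.80 to 3.22, adjusted p = 0.0479), above the threshold of 0.01, at which limma called 0 probe sets for this test. For that test 4 of the 8 probe sets had an unadjusted p under 0.05, against 11.4% of all.

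Sox10 ranked at percentile 92.9 and 91.7 in Sertoli cells against 44.9 and 53.2 in pre-granulosa cells, 68.0 and 68.8 in testes and 45.1 and 41.5 in ovaries. Sertoli cells were clearly highest and testes next, and pre-granulosa cells and ovaries overlapped. Sertoli minus testis came to 2.73 less the median of all probe sets, at percentile 99.6 of that difference. Another probe set (1424985_a_at) read 7.32 and 7.33 in Sertoli cells against 5.84 and 5.40 in pre-granulosa cells and was called as well (1.71 ± 0.19, limma adjusted p = 0.00668; 0.0237 to 0.035 without any one of the Sertoli, testis or ovary arrays, and 0.12 from the 4 sorted arrays alone), with 6.03 and 5.84 in testes against 5.63 and 5.52 in ovaries (0.36 ± 0.19, adjusted p = 0.675). The last (1425369_a_at) differed by 0.23 ± 0.14 and 0.18 ± 0.14 (adjusted p = 0.452 and 0.842), with all its values between 5.29 and 5.92. It comes from the same complementary DNA record as the brightest one, and the 3 probe sets disagree on the size of the Sox10 difference. With their mean, it was 2.11 between the sorted cells and 0.81 between the organs.

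Genes of neural crest, glia and melanocytes were read beside Sox10. Over all 18193 genes, with 1 probe set each, 2.67% were called between the sorted cells (1.62% higher and 1.05% lower) and 0.352% between the organs. Of the 15 measured genes of this list, 1 was called between the sorted cells, Mbp, a myelin protein gene, higher in Sertoli cells by 2.33 ± 0.25 (limma adjusted p = 0.00593). In the organs Mbp had the opposite sign, at 7.92 ± 0.29 in testes and 8.59 ± 0.11 in ovaries (adjusted p = 0.463). Between the organs limma called 0, and in each comparison 3 had an unadjusted p under 0.05. Of all probe sets 18.9% had such a p between the sorted cells and 9.31% between the organs. Erbb3, a neuregulin receptor of neural crest and glial cells, read 8.96 and 8.99 in Sertoli cells against 4.77 and 6.86 in pre-granulosa cells, and 9.79 and 9.40 in testes against 7.82 and 6.66 in ovaries. Its XY values lay above its XX values in both sets, as did those of Sox10, and it was not called in either. The summed level of the list (log2 of the sum) was 10.80 to 10.87 in Sertoli cells against 10.47 to 11.55 in pre-granulosa cells, and 11.52 in testes and 11.66 to 12 in ovaries. Foxd3, a neural crest factor, Tyr, the melanocyte tyrosinase, Fabp7 and Cdh19, both genes of glial precursors, were at or under the background level in both Sertoli samples. Foxd3, Tyr and Cdh19 were so in pre-granulosa cells and in testes as well, and Tyr and Cdh19 also in ovaries. Mitf, the melanocyte factor, averaged 8.06 ± 0.56 in Sertoli cells against 7.96 ± 0.22 in pre-granulosa cells (limma adjusted p = 0.956). Ret, a receptor kinase, read 3.97 and 8.04 in Sertoli cells against 9.13 and 11.08 in pre-granulosa cells and was not called (adjusted p = 0.15). Of 6 macrophage genes 1 was called, C1qb, a complement chain, higher in Sertoli samples (4.49 ± 0.45, adjusted p = 0.00504), and their summed level was 9.61 to 11.66 in Sertoli samples and 7.34 to 7.41 in pre-granulosa samples, and 9.27 to 9.29 in testes and 9.7 to 9.76 in ovaries. Their part in the Sox10 result was not tested.

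Other cell types were read in the same way. Of all genes limma called 2.67% between the sorted cells and 0.352% between the organs. An unadjusted p under 0.05 was found for 18.9% and 9.31% of all probe sets. Of 9 endothelial genes 1 was called between the sorted cells, Robo4, at least 5.17-fold higher in Sertoli samples, and 0 between the organs by limma (1 at an unadjusted p under 0.05). Of 4 fetal Leydig cell genes limma called 0 between the sorted cells (4 at an unadjusted p under 0.05), where the summed level was 10.83 to 11.61 in Sertoli samples and 9.31 to 9.81 in pre-granulosa samples. The steroid enzyme genes Cyp17a1, Cyp11a1 and Hsd3b1 were called between the organs, higher in testes, with a sum of 13.32 to 13.55 in testes and 9.4 to 9.54 in ovaries. In each comparison limma called 0 of 5 interstitial genes (2 at an unadjusted p under 0.05 between the sorted cells and 4 between the organs) and 0 of 4 erythroid genes (1 and 0).

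Dmrt1, the DM domain factor, was called between the sorted cells and not between the organs. It read 9.31 and 9.30 in Sertoli cells against 7.33 and 6.43 in pre-granulosa cells. It read 8.65 and 8.62 in testes against 8.67 and 8.61 in ovaries. The sorted-cell groups were apart and the organ groups overlapped. The difference was 2.42 ± 0.29 between the sorted cells (95% interval 1.73 to 3.12, limma adjusted p = 0.00806), and between the organs its interval was -0.70 to 0.69 (adjusted p = 1). The difference of the 2 comparisons was 2.43 ± 0.40 (1.45 to 3.41, adjusted p = 0.0874), which did not pass. The sorted-cell call was lost with the 4 sorted arrays alone (adjusted p = 0.135) and without any one of the Sertoli, ovary or testis arrays (0.0286 to 0.0422), with the difference at 2.42 or 2.43.

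Dmrt1 stood at percentile 89.3 and 88.8 in Sertoli cells against 72.6 and 62.0 in pre-granulosa cells, 80.5 and 80.0 in testes and 80.5 and 80.0 in ovaries. The 2 kinds of organ thus overlapped between the higher Sertoli and the lower pre-granulosa cells. Pre-granulosa minus ovary came to -1.51 less the median of all probe sets (percentile 6.77 of that difference), and Sertoli minus testis to 0.88 (percentile 91.4). On the ovarian side the brightest probe sets of Sox9 and Sox8 came to 2.03 and 1.09. That of Sox10 came to 0.26, which stems from the subtracted median, since its difference as deposited was 0.0. The dimmer probe sets came to 0.06 and 0.01 for Sox9 and to 0.3 and -0.12 for Sox10.

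Germ cell genes were read beside Dmrt1. Their summed level over 12 measured genes was 8.07 to 8.21 in Sertoli cells against 8.57 to 8.99 in pre-granulosa cells, and 12.91 to 13.11 in testes and 13.17 to 13.33 in ovaries. Ddx4, a germ cell helicase, read 3.4 and 4.66 in Sertoli cells against 3.13 and 3.75 in pre-granulosa cells, all under the background level, and 10.66 and 10.62 in testes and 10.89 and 10.85 in ovaries. Dazl, Dnd1, Mael, Kit, Stk31 and Sox2 were likewise at or under it in both sorted groups and above it in both organs, while Tdrd1 was at or under it in all 4 groups. Sycp3 averaged 5.51 ± 0.28 in Sertoli cells against 7.82 ± 0.51 in pre-granulosa cells, and 8.06 ± 0.01 in testes and 8.72 in both ovary samples. Stra8, a gene of meiotic entry, averaged 5.28 ± 0.14 in Sertoli cells against 5.29 ± 0.25 in pre-granulosa cells, and 5.5 ± 0.11 in testes and 7.89 ± 0.53 in ovaries. Between the sorted cells 1 of 12 was called, Sycp3, a synaptonemal complex gene, lower in Sertoli cells (-2.31 ± 0.26, limma adjusted p = 0.00739), and between the organs limma called 0, with 5 at an unadjusted p under 0.05. Of all genes 2.67% were called between the sorted cells, and 9.31% of all probe sets had such an unadjusted p between the organs. The part of germ cells in the Dmrt1 levels of the organs was not tested.

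**Figure D3:**
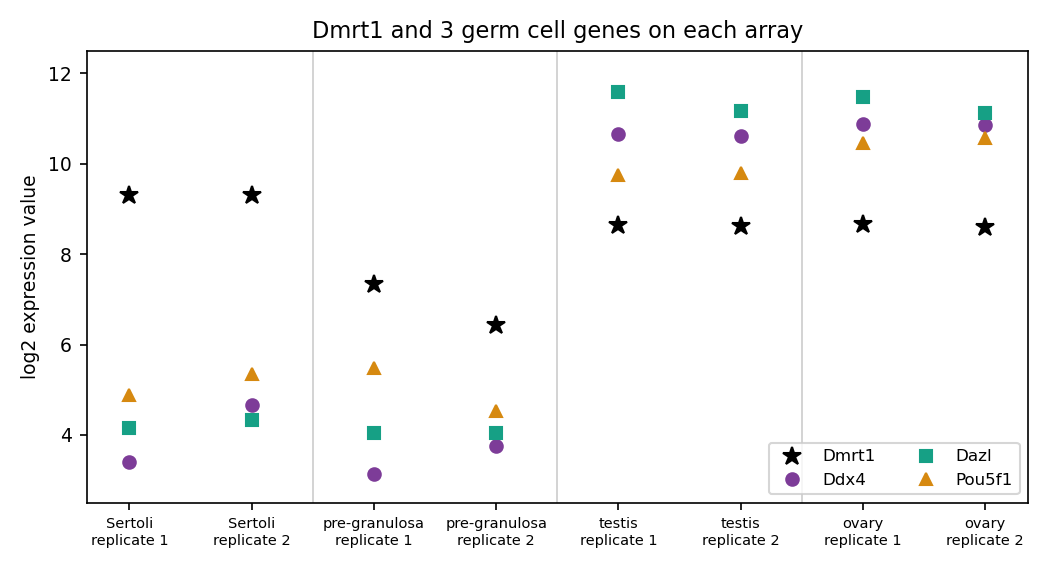
Log2 expression value (y axis) of Dmrt1 and of the germ cell genes Ddx4, Dazl and Pou5f1 on each of the 8 arrays (x axis); points are single arrays. The 3 germ cell genes are low in all sorted samples and high in all gonad samples, and Dmrt1 is nearly equal across the gonad samples.

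The profiles of the 4 factors were compared over the 8 arrays after centring each array on its median. These correlations describe 4 groups of 2 arrays, which share their normalization and their composition, and are not tests. Sox8 and Sox9 had r = 0.934, Sox8 and Sox10 0.922, and Sox9 and Sox10 0.822. Dmrt1 had 0.494 with Sox8, 0.314 with Sox9 and 0.744 with Sox10. Within the 4 sorted arrays these were 0.809, 0.769 and 0.944, and within the 4 gonad arrays -0.056, -0.152 and -0.028. Dmrt1 read 8.61 to 8.67 in the gonad arrays, so its r there rests on very small deviations. Pairs of SOX factors had 0.924 to 0.996 in the sorted arrays and 0.911 to 0.987 in the gonad arrays. With 2 XY and 2 XX arrays in each set, such values mostly restate the XY minus XX differences. The genes most like each factor were sought among 7444 genes with a range of group means of at least 1 log2 unit.

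For Sox9 these were Ptch1 (r = 0.964), the hedgehog receptor that is itself a hedgehog target, Cst9 (0.963), Kazald1 (0.961), Akr1cl (0.958) and Defb19 (0.949), a defensin. Kazald1 averaged 10.82 ± 0.03 in Sertoli cells against 9.47 ± 0.16 in pre-granulosa cells, and 9.97 ± 0.28 in testes and 7.77 ± 0.03 in ovaries. For Sox8 they were Eps8 (0.967), an actin regulator, Gstm6 (0.965), a glutathione transferase, Mro (0.958), Foxq1 (0.953), a forkhead factor, and Rragd (0.953), a GTPase of nutrient sensing. For Sox10 they were Epyc (0.998), a proteoglycan, Prss12 (0.998), a serine protease, Foxa3 (0.997), a forkhead factor, Gas7 (0.995) and H2-Aa (0.992), a class II histocompatibility chain. Epyc was dim, at 5.66 ± 0.09 in Sertoli cells against 4.14 ± 0.13 in pre-granulosa cells, and 5.02 ± 0.02 in testes and 4.42 ± 0.06 in ovaries. Both of its XX means were under the background level. Prss12 averaged 9.11 ± 0.01 in Sertoli cells against 4.77 ± 0.46 in pre-granulosa cells, and 6.64 ± 0.21 in testes and 4.69 ± 0.14 in ovaries. For Dmrt1 they were Anp32b (0.993), Kif22 (0.987), a mitotic kinesin, Spag7 (0.980), Phlda3 (0.978) and Colgalt1 (0.973). Kif22 averaged 10.57 ± 0.12 in Sertoli cells against 8.72 ± 0.36 in pre-granulosa cells, and 10.30 ± 0.11 in testes and 10.32 ± 0.09 in ovaries. All genes of this paragraph were picked for their likeness to a factor, so that they share its pattern follows from the choice. This holds for the genes of Dmrt1, with pre-granulosa cells alone low, as for those of the other factors.

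Among the other SOX genes, Sox6, a partner of SOX9 in cartilage, was the 1 called of 17 between the sorted cells, where 2.67% of all genes were called. It read 7.93 and 7.65 in Sertoli cells against 3.95 and 4.67 in pre-granulosa cells, with both pre-granulosa values under the background level, so Sox6 was at least 8.03-fold higher in Sertoli cells (limma adjusted p = 0.00218). In the organs it read 8.41 and 8.65 in testes and 7.84 and 7.97 in ovaries (0.62 ± 0.26, adjusted p = 0.555). A second Sox6 probe set gave at least 7.93-fold between the sorted cells and was called, and 2 dimmer ones were not. Of the bright SOX genes Sox11 and Sox4, Sox11 differed by -0.32 ± 0.24 and Sox4 by -0.27 ± 0.44 between the sorted cells (adjusted p = 0.570 and 0.825). Between the organs limma called 0 of the 17, with 3 at an unadjusted p under 0.05, against 9.31% of all probe sets. The 2 probe sets of Sry, the testis-determining gene, gave signal in XX samples, which lack the gene, 7.99 in pre-granulosa cells and 7.53 in ovaries for the brighter one, so they do not read Sry specifically and its level is not given.

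Of 7 other DMRT genes limma called 0 in each comparison, with 2 at an unadjusted p under 0.05 between the sorted cells and 3 between the organs. The shares of all probe sets at such a p were 18.9% and 9.31%. Dmrt3 averaged 7.77 ± 0.78 in Sertoli cells against 5.74 ± 0.02 in pre-granulosa cells (2.03 ± 0.35, limma adjusted p = 0.0272), and 6.82 ± 0.20 in testes and 6.38 ± 0.06 in ovaries (adjusted p = 0.846). Dmrta1 had the opposite sign. It averaged 9.30 ± 0.46 in Sertoli cells, below the 10.48 ± 0.25 of pre-granulosa cells (-1.17 ± 0.25, adjusted p = 0.0532), and 8.60 ± 0.10 in testes and 10.44 ± 0.05 in ovaries (-1.84 ± 0.25, adjusted p = 0.0413).

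Regulators that act before or with Sox9 moved in no common direction. Of 16 measured, 3 were called between the sorted cells, where 2.67% of all genes were called. Ptgds, which makes prostaglandin D2, was higher in Sertoli cells (4.87 ± 0.33). Lhx9, a factor of the early gonad (-4.43 ± 0.21), and Kdm3a, a histone demethylase that acts on Sry (-1.65 ± 0.18), were lower. Wt1, the factor of the early gonad and the supporting cells, averaged 12.42 ± 0.14 in Sertoli cells against 12.33 ± 0.13 in pre-granulosa cells (adjusted p = 0.854). Fgfr2, the receptor of FGF9, averaged 8.15 ± 0.07 in Sertoli cells against 11.52 ± 1.05 in pre-granulosa cells and was not called (adjusted p = 0.0123). The list's median was 0.23, against 0.04 over all genes. Between the organs 1 was called, Ptgds, where 0.352% of all genes were called.

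Of 22 Sertoli genes that lie downstream of or beside SOX9, SOX8 and DMRT1, 14 were called between the sorted cells, all higher in Sertoli cells, and the list's median difference was 3.47. Of all genes 1.62% were called higher. Ptgds is in this list as well as among the regulators above. Dhh was 89.8-fold and Cst9 31.0-fold higher, and Col9a3, a collagen chain, 29.6-fold. Cbln4 was at least 18.5-fold higher, since it was under the background level in both pre-granulosa samples. Between the organs 6 were called, all higher in testes, with a median of 2.11, where 0.236% of all genes were called higher. Aard averaged 13.25 ± 0.07 in Sertoli cells against 10.27 ± 1.68 in pre-granulosa cells and was not called (adjusted p = 0.0671).

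Of 17 genes on a list of ovarian genes, 5 were called between the sorted cells, where 1.05% of all genes were called lower. All 5 were lower in Sertoli cells, and the list's median was -3.15. They were Foxl2 (-4.01 ± 0.27), the signalling protein genes Wnt4 (-3.93 ± 0.37) and Gng13 (-3.78 ± 0.22), the oestrogen receptor Esr1 (-3.15 ± 0.30) and Sprr2d. Foxl2 and Gng13 were also called between the organs, where the list's median was -0.99 and 0.115% of all genes were called lower. Ctnnb1, the beta-catenin of WNT signalling, averaged 13.70 ± 0.04 in Sertoli cells against 13.55 ± 0.07 in pre-granulosa cells (limma adjusted p = 0.646), and Lef1, a factor it acts with, 7.76 ± 1.5 in Sertoli cells against 9.17 ± 2.73 in pre-granulosa cells (adjusted p = 0.641). Esr1 averaged 8.36 ± 0.09 in testes and 9.35 ± 0.47 in ovaries (adjusted p = 0.332). Whether the genes of this list oppose SOX9 or DMRT1 was not tested.

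Genes of the cartilage programme of SOX9 were read because Sertoli cells share some of them. Of 11 measured, 4 were called between the sorted cells, all higher in Sertoli cells: Sox6 and the collagen chains Col9a1 (4.77 ± 0.57), Col2a1 (3.32 ± 0.32) and Col9a2 (3.07 ± 0.24). Of all genes 1.62% were called higher. Col2a1 read 8.05 and 8.88 in Sertoli cells against 5.14 and 5.16 in pre-granulosa cells, and 6.74 and 7.29 in testes against 5.75 and 5.42 in ovaries. Acan, the cartilage proteoglycan, had the opposite sign, at 7.01 ± 1.38 in Sertoli cells against 9.15 ± 0.99 in pre-granulosa cells (limma adjusted p = 0.163), and Matn1 was under the background level in all 4 groups. The list's median was 0.06, against 0.04 over all genes. Between the organs limma called 0 of the 11, with 3 at an unadjusted p under 0.05, against 9.31% of all probe sets.

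**Figure D4:**
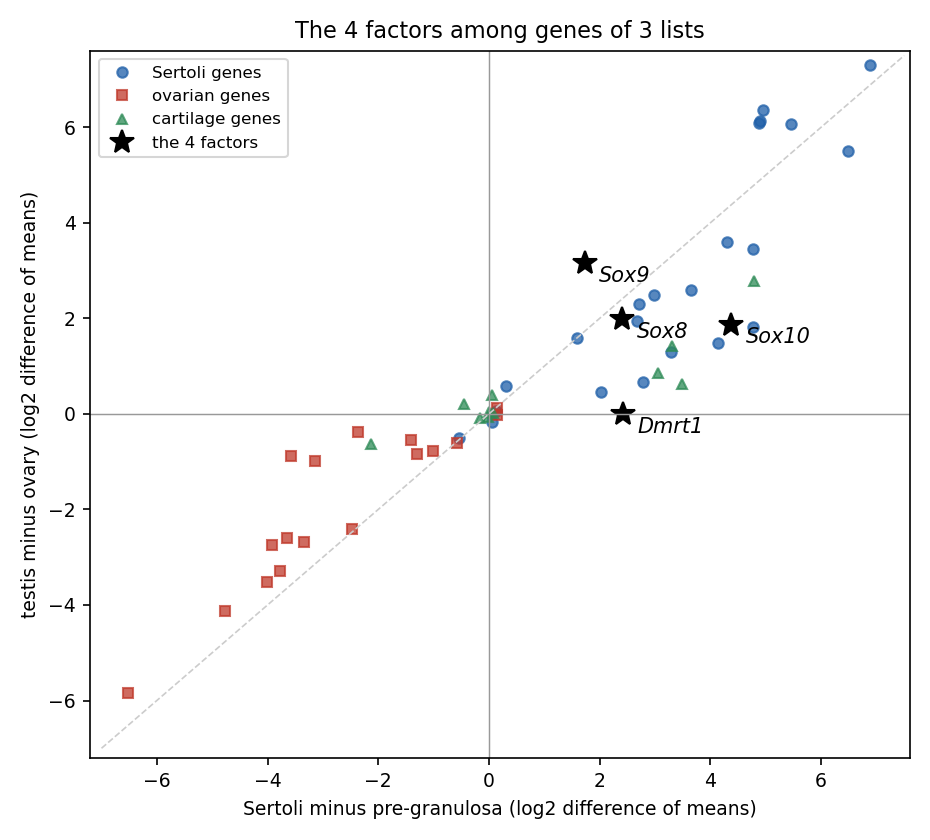
Difference of group means of Sertoli minus pre-granulosa (x axis) and of testis minus ovary (y axis), both in log2 units, for the measured genes of the Sertoli, ovarian and cartilage lists and for the 4 factors (stars, brightest probe set); the dashed line marks equal differences. Sox9 lies above the line, Sox8 near it, and Sox10 and Dmrt1 below it, Dmrt1 at 2.42 between the sorted cells and near 0 between the organs.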

How the data were processed

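RNA of 8 samples was labelled as biotinylated cDNA and read on Affymetrix mouse genome arrays, 1 per sample. The deposited values are log2 probe set values, and the submitters' processing notes name RMA. The threshold of 1% was taken from the series text, whose own test (R/maanova) was not repeated. Ranked values differed by at most 0.17 within the 4 sorted-cell and 0.139 within the 4 gonad arrays, with a median of 0.383 between these sets, which points to a separate normalization of each set, although the labels do not mention one. No further normalization was applied.

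Probe sets were named from the array annotation (34945 with a single symbol, 932 with several, 9160 with none). For genes with several, the probe set that was brightest on average across the 8 arrays was used, while all 8 probe sets of the 4 genes are given. Tests used limma 3.58.1 in R 4.3.3 over all 8 arrays, with 1 mean per group, eBayes and Benjamini-Hochberg adjustment over 45037 probe sets, two-sided, with 4 residual degrees of freedom. The spread between replicates (root mean square SD) was 0.428 for Sertoli cells, 0.531 for pre-granulosa cells, 0.198 for testes and 0.299 for ovaries, so the pooled spread is on average too low for the sorted cells and too high for the organs. The test was also run on simulated data, in 10 runs of 45037 probe sets, 200 of them changed. Changes of 2 and 4 log2 units were called in 32.8% and 73.2% of cases between the sorted cells. Between the organs the shares were 38% and 74.6%. The simulation gave a probe set the same spread in all 4 groups, so that these shares lie close together follows from its setting. In the data the replicate spreads above differ between the sorted cells and the organs. The shares therefore do not give the chance of calling a real change in either comparison, and no difference between the comparisons is read from them.

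The 4 genes and the 13 gene lists (145 of 160 entries measured) were chosen with earlier results of these data known. For each list up to 4 called members with the largest differences and up to 2 bright members not called are named, and for each factor the 5 genes most like it. List members named beyond that, such as Sprr2d, Erbb3, Stra8 and the genes at background, were named after their values were seen. Promoter sequences are from RefSeq (GRCm38.p6). The labels do not state whether replicate numbers pair the samples. The correlation of same-numbered deviations was 0.009 for the sorted cells and 0.015 for the organs, which cannot settle it. Alternatives in normalization, filter, moderation, samples and threshold were run.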

Additional observations from a re-analysis of the deposited data

How the results depend on the processing

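With quantile normalization (all arrays together, or per set) and with median centring, each of the 4 factors' brightest probe sets stayed on its side of the threshold in both comparisons. Between the sorted cells, the count of 3 called of the 8 probe sets was 0 without moderation, with the 4 sorted arrays alone and with a replicate block, and 1 with an array weight per group. The count over all probe sets, 816, became 13, 0, 0 and 264 in these settings and 2476 at an adjusted p of 0.05. Sox10 stayed at 4.38 but had adjusted p of 0.0179, 0.0614 and 0.0202 in the first 3 of these settings, and Dmrt1 stayed at 2.42 with 0.0655, 0.135, 0.0346 and 0.0123, and 0.0104 with trend and robust moderation. Between the organs, the 97 calls over all probe sets became 0 without moderation and with a replicate block, 394 with an array weight per group and 319 at 0.05. Of the 8 probe sets 1 was called with the gonad arrays alone and 2 with an array weight per group or at 0.05. Sox9 stayed at 3.15 and was called with the gonad arrays alone and with weights (adjusted p = 0.0097 and 0.00116), and Sox10, at 1.87, with weights (0.00163). Both passed at 0.05. For the difference of the comparisons, 113 probe sets and 1 of the 8, the brightest of Sox10, passed at 0.05, against 0 at 0.01.

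Leaving out each array in turn gave 108 to 1588 calls and 1 to 4 of the 8 for the sorted cells, 0 to 93 and 0 to 1 for the organs, and 0 to 2 over all probe sets for the difference of the comparisons. The 108 came without either testis array, 124 and 342 without Sertoli replicate 2 and 1, 199 without either ovary array and 1588 without pre-granulosa replicate 2. For the organs it was 28 without either Sertoli array and 0 without any testis or ovary array, and the 2 came without Sertoli replicate 2. Differences then ranged between the sorted cells from 1.75 to 3.05 for Sox8, 1.18 to 2.28 for Sox9, 1.98 to 2.87 for Dmrt1 and 4.14 to 4.62 for Sox10, which stayed called throughout (adjusted p = 0.00125 to 0.0085). For the organs Sox9 ranged from 2.98 to 3.32 and Sox8 from 1.48 to 2.50. Where a group is left with 1 array, it is assumed to vary like the other groups. Whether replicate numbers pair the samples is not stated in the labels, so how far the replicate block applies is not known. The cause of these changes was not tested.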
